A study of Mus musculus with 8 samples.

Results

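Described here are 9 genes of amino acid synthesis out of 49584 features counted: the serine genes Phgdh, Psat1 and Psph, the asparagine gene Asns, the proline genes Aldh18a1, Pycr1 and Pycrl, and the cysteine genes Cbs and Cth. They were chosen by name, with earlier results of these data known, and all 9 were found by gene name in the counted table. RNA had been taken from crude mitochondria of mouse heart in a series on TEFM, an elongation factor of transcription in mitochondria. Both groups carried Tefm with an exon flanked by loxP sites (L/L). The 4 control mice had no cre and are given as Tefm +/+ in the genotype field. The 4 knockout mice (L/L, cre; Tefm -/-) expressed cre from a promoter the labels call muscle creatinine kinase, known to drive it in striated muscle, so other cell types of the heart keep the gene. The sources used here state neither age nor sex.

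Cells can make the amino acids in question from common intermediates. PHGDH, PSAT1 and PSPH act in sequence to turn a glycolytic phosphoglycerate into serine. ASNS moves an amide group from glutamine to aspartate to give asparagine. ALDH18A1 and then a PYCR enzyme turn glutamate into proline, with PYCR1 in the mitochondrion and PYCRL (also named PYCR3) in the cytosol. CBS joins serine to homocysteine and CTH splits the product to release cysteine, the transsulfuration route for which liver is best known. Several of these genes are textbook targets of ATF4, a transcription factor of the integrated stress response that binds a composite C/EBP-ATF response element with the core TGATGNAA.

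Of the 9 genes 7 have a promoter window in RefSeq's table for GRCm38.p6, which runs from 250 bases before the annotated start to 50 after it. The 7 genes give 8 windows, since Psat1 has a pair of starts. The windows of Asns and Pycr1 are shown because they are the ones that held that core. Both sequences run 5′ to 3′ on the strand of the gene, the minus strand, and capitals mark matches to TGATGNAA or to GTTACA, a further element known from the Asns promoter.
Asns promoter, chr6:7693160-7693459: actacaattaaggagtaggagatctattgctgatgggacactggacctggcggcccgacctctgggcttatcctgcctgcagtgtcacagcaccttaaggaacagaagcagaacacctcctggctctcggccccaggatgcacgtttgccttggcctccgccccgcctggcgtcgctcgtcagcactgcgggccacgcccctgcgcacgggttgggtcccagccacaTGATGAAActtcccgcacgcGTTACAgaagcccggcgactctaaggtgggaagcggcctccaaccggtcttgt
Pycr1 promoter, chr11:120643699-120643998: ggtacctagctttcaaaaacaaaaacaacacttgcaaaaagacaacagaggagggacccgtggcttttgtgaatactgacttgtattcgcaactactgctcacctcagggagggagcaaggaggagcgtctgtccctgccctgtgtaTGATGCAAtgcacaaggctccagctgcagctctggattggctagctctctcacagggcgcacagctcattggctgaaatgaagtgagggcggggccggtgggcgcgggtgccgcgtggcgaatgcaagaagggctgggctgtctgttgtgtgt
Both motifs were searched on both strands. The Asns match TGATGAAA began at position 228 of the window and GTTACA at position 248, and the Pycr1 match TGATGCAA began at position 148. TGATGNAA was present in 2 of the 8 windows of these genes, in 3.97% of all 32851 windows and in 2.25% of the 13630 windows of genes tested. Among the 294 windows of genes called at least 4-fold higher in knockouts it was present in 17, or 5.78%. GTTACA was present in 1 of the 8 windows and in 8.25% of all windows. The windows of Phgdh, Psat1, Psph, Aldh18a1 and Cbs held neither run of letters.

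The libraries held 26268804 to 27403415 counts in controls and 21108165 to 25393933 in knockouts. RNA of mitochondrial DNA (mtDNA) made up 72.3% to 74.02% of the counts in controls, 59.3% in knockout replicate 1 and 38.7% to 44.2% in knockout replicates 2 to 4. Values are therefore given in CPM, counts scaled to a library of 1000000 with TMM factors, which follow the bulk of nuclear genes. Tefm itself held 110, 117, 106 and 144 counts in controls and 166, 233, 230 and 245 in knockouts (log2 fold change 0.14, SE 0.11, edgeR adjusted p = 0.324), and since the deletion removes an exon, this whole-gene count does not check the labels. Summed cardiomyocyte markers stood at 11883 to 12647 CPM in controls and 6158 to 9038 in knockouts, and 4 of the 6 fell and 1 rose. Of 5 fibroblast markers 2 rose (summed 182 to 200.1 CPM against 194 to 304). Endothelial markers summed to 314 to 331 CPM in controls and 267 to 298 in knockouts (2 of 4 fell), and those of smooth muscle and pericytes to 469 to 494 and 411 to 459 (1 of 4 rose and 1 fell). Of 4 leukocyte markers tested Ptprc fell, with sums that overlap. The part of these shifts in the results that follow was not tested.

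In the heart preparations 7 of the 9 genes rose in the knockout libraries and none fell. Pycrl did not pass and Cbs held too few counts to test. In edgeR's quasi-likelihood test at a false discovery rate of 0.05 over 17891 genes, 26.1% of all genes tested were called higher and 23.9% lower, and 2.04% were called higher by at least 4-fold. The 8 tested genes had a median log2 fold change of 3.80, against -0.015 over all genes tested. Since the genes were chosen with earlier results of these data known, this contrast is a description and not a test. Of the 7 that rose 6 did so by more than 4-fold. In each of the 7 all 4 knockout libraries stood above all 4 controls, which held for 23.9% of all genes tested. The 9 genes together took 0.00313% to 0.00371% of the nuclear counts in controls and 0.0358% to 0.0482% in knockouts. In such bulk RNA fewer cells of a type and less RNA per cell cannot be told apart, and a change in what co-purifies with mitochondria cannot be told apart from one in the heart.

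**Figure D1:**
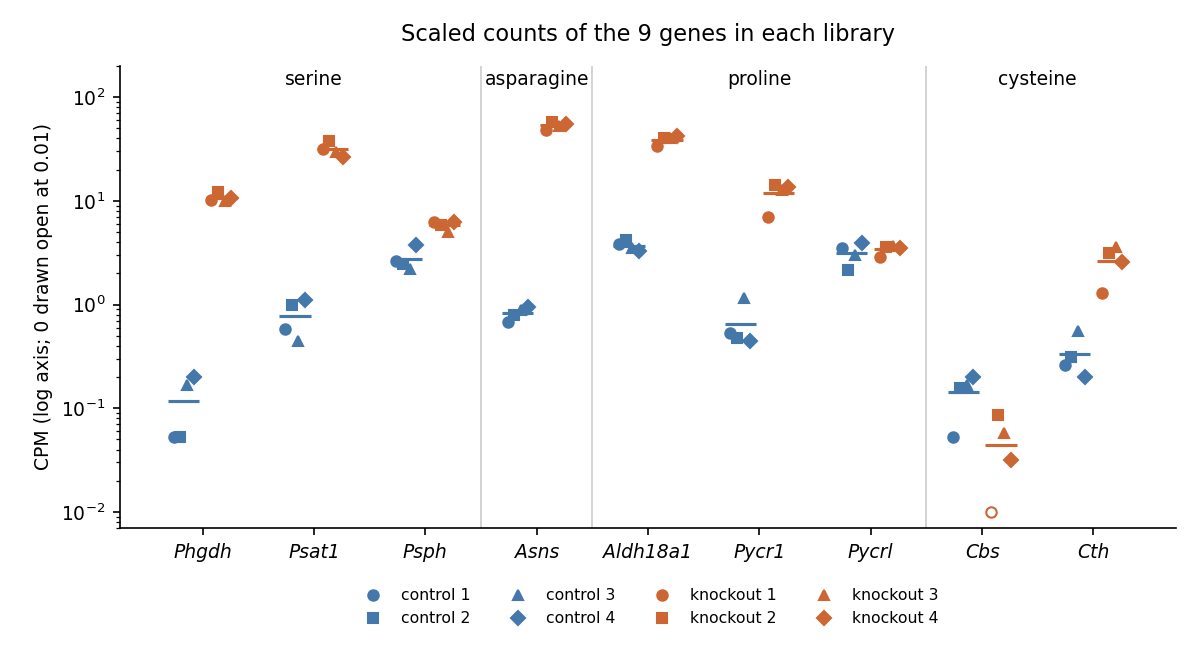
CPM (log axis) of the 9 genes in each of the 8 libraries, with symbols for replicates and bars for group means of 4. Knockout libraries stand above controls in all genes but Pycrl, where the groups overlap, and Cbs, where knockout replicate 1 held no count.

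RNA counts of the serine synthesis genes rose at each step, by unequal amounts. Phgdh, the entry enzyme (ENSMUSG00000053398.11, chromosome 3, 98313170 to 98339990, minus strand, in GRCm38), was almost without counts in controls, with 1, 1, 3 and 4. It held 269, 417, 342 and 337 counts in the knockout libraries. The lowest knockout library was thus far above the highest control. On the CPM scale this was 0.118 ± 0.0764 in controls and 10.7 ± 0.957 in knockouts (SD, 4 mice in each group, n = 4), a log2 fold change of 6.45 (SE 0.23, edgeR adjusted p = 1.12e-10). The ratio of scaled counts was 90.9, with a 95% counting interval of 47.8 to 199 (exact binomial) that is wide because controls held 9 counts in all. This interval pools the counts of each group and leaves out differences between mice.

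Psat1, the aminotransferase of the pathway (ENSMUSG00000024640.9, chromosome 19, 15904678 to 15947337, minus strand), held 11, 19, 8 and 22 counts in controls. In knockouts it held 837, 1316, 1029 and 849. Its CPM went from 0.779 ± 0.317 to 31.6 ± 4.81 (SD, n = 4 each), with a log2 fold change of 5.32 (SE 0.19, edgeR adjusted p = 1.16e-10). Psph, the phosphatase that releases serine (ENSMUSG00000029446.14, chromosome 5, 129765558 to 129787449, minus strand), was already present in controls at 50, 47, 40 and 75 counts. Knockouts held 164, 204, 174 and 198. It rose 2.11-fold, from 2.76 ± 0.673 to 5.86 ± 0.583 CPM (log2 fold change 1.08, SE 0.16, edgeR adjusted p = 6.96e-05). Psph shares 452 exon bases with Cct6a, a chaperonin gene on the other strand, which is 26.1% of the longest Psph transcript. No source used here says whether counting used strand. Cct6a held 1723 counts in controls and 3970 in knockouts, and its part in the Psph count was not tested.

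Counts were also assigned to annotated copies of Phgdh and Psat1, and rose there too. Processed pseudogenes are intron-less copies of an mRNA, and 14 of them share an exact run of at least 50 bases with the longest Phgdh transcript. Such runs with other genes cover 81.3% of that transcript, and 12 of the 14 copies held counts. The copy Gm7901 (chromosome 8, 75711600 to 75713196, minus strand, within the gene Iqcm) shares 1321 of the 1893 bases, and Gm9347 (chromosome 7, 136810909 to 136812515, plus strand) shares 1072. Gm7901 held 5, 8, 6 and 14 counts in controls and 935, 1558, 1219 and 1361 in knockouts, more than Phgdh itself in every library. Gm9347 held 2, 1, 1 and 0 counts in controls and 148, 268, 232 and 234 in knockouts. Iqcm, in which Gm7901 lies, held 3 counts in controls and 1 in knockouts. Both copies rose, with log2 fold changes of 6.50 (SE 0.18, edgeR adjusted p = 1.19e-11) for Gm7901 and 6.91 (SE 0.31, edgeR adjusted p = 7.72e-10) for Gm9347.

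Across the 4 knockout libraries the copies took a nearly constant part of the summed Phgdh counts, 80.5%, 81.9%, 81.4% and 82.9%. In controls they took 84.7% of 59 counts. For Psat1 the copy Gm12611 (chromosome 11, 60816375 to 60817747, plus strand) took 16.7% of 72 counts in controls and 19.7% to 21.5% in knockouts. Gm12611 rose from 12 to 1030 counts (log2 fold change 5.64, SE 0.25, edgeR adjusted p = 5.97e-10). Among the copies of Phgdh, Gm7901 holds 7 of the gene's 11 exon junctions unbroken, with at least 20 identical bases on either side, and 9 of the 11 are held by some copy. The 40 bases across a junction are shown for each gene because the same run of letters is found whole in the named copy, 5′ to 3′ along the mRNA, with capitals for the bases on either side of the junction.
Phgdh exons 1 and 2, also in Gm7901: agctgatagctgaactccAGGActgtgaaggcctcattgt
Psat1 exons 3 and 4, also in Gm12611: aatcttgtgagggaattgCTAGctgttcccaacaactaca
No source used here says how reads with several matches were counted. Whether the copies' counts come from RNA of the genes or of the copies was not tested. With each gene and its copies summed, a step chosen after these counts had been seen, Phgdh stood at 0.769 ± 0.190 CPM in controls and 58.6 ± 6.85 in knockouts (SD, 4 mice in each group, n = 4). Its log2 fold change was then 6.24 (SE 0.15, edgeR adjusted p = 2.84e-12). Psat1 stood at 0.937 ± 0.261 and 39.7 ± 5.90 CPM (5.39, SE 0.16, edgeR adjusted p = 2.53e-11). Summing thus raised the level of Phgdh in both groups and moved its fold change by less than the SE of the gene alone.

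**Figure D2:**
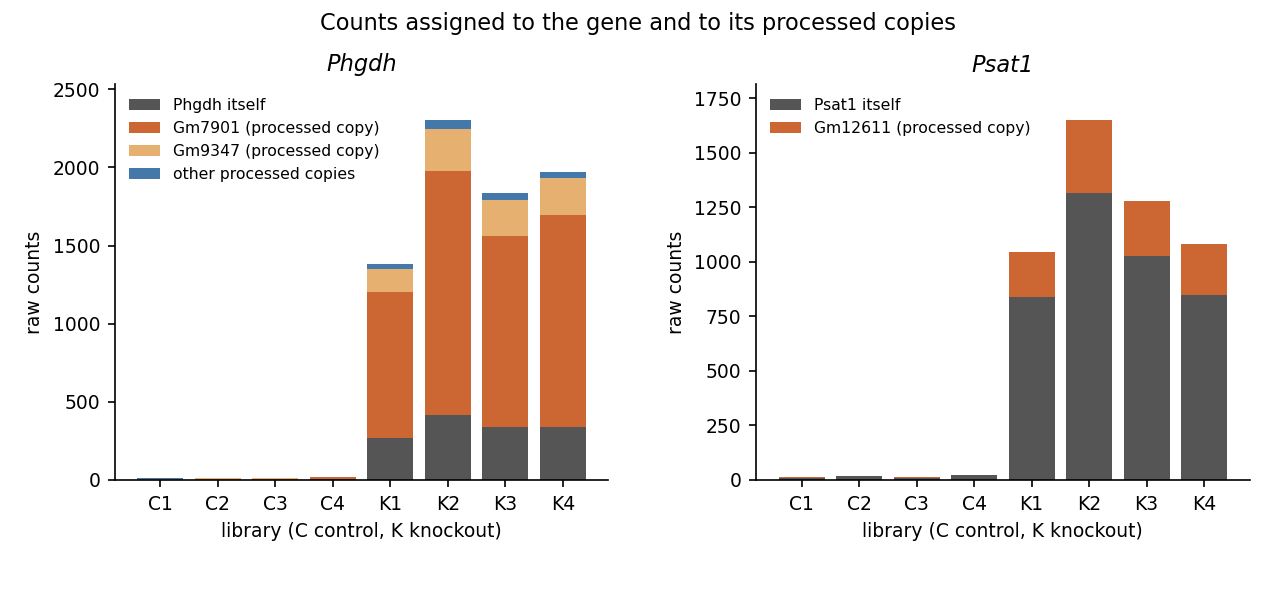
Raw counts of Phgdh (left) and Psat1 (right) in each library, stacked with the counts of their processed copies. In knockouts Gm7901 holds more counts than Phgdh itself, while Psat1 holds most of its own sum.

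Asns, the asparagine synthetase gene (ENSMUSG00000029752.12, chromosome 6, 7675169 to 7693254, minus strand), held 13, 15, 16 and 19 counts in controls and 1257, 1999, 1816 and 1762 in knockouts. Its replicates were close, with a coefficient of variation of 13.9% in controls and 7.92% in knockouts. CPM went from 0.826 ± 0.115 to 53.5 ± 4.24 (SD, n = 4 each), a log2 fold change of 6.01 (SE 0.12, edgeR adjusted p = 1.02e-12). It ranked 31st of 17891 by fold change, with Phgdh 26th and Psat1 42nd. No run of 50 or more bases of its longest transcript was found in a transcript of another gene, unlike Phgdh. Shorter or inexact matches were not searched, so reads shared with other places are not excluded.

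In proline synthesis RNA counts of the genes for mitochondrial enzymes rose, and the gene of the cytosolic enzyme did not pass. Aldh18a1, whose enzyme carries out the reactions from glutamate to the ring precursor (ENSMUSG00000025007.13, chromosome 19, 40550257 to 40588463, minus strand), held 73, 80, 63 and 66 counts in controls and 879, 1384, 1410 and 1328 in knockouts. It rose 10.5-fold, from 3.70 ± 0.399 to 39.05 ± 3.70 CPM (log2 fold change 3.40, SE 0.10, edgeR adjusted p = 2.87e-11). Pycr1, the mitochondrial reductase gene (ENSMUSG00000025140.15, chromosome 11, 120635712 to 120643769, minus strand), held 10, 9, 21 and 9 counts in controls and 181, 491, 444 and 428 in knockouts. Control replicate 3 and knockout replicate 1 stand apart from the rest of their groups, and the groups do not overlap. CPM went from 0.652 ± 0.341 to 11.9 ± 3.34 (SD, n = 4 each), a log2 fold change of 4.20 (SE 0.30, edgeR adjusted p = 6.3e-08).

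Pycrl, the cytosolic reductase gene (ENSMUSG00000022571.8, chromosome 15, 75916477 to 75921560, minus strand), held 66, 41, 54 and 79 counts in controls and 76, 124, 128 and 112 in knockouts. In CPM the controls stood at 3.48, 2.15, 2.99 and 3.94 and the knockouts at 2.91, 3.59, 3.69 and 3.53. The means were 3.14 ± 0.765 and 3.43 ± 0.355 (SD, n = 4 each), and the groups overlap. The log2 fold change was 0.13 (SE 0.17, edgeR adjusted p = 0.558), with a 95% interval of -0.24 to 0.50 that reaches neither the value of Pycr1 nor that of Aldh18a1. Without control replicate 2 it was -0.017. Scaled by library totals alone it was 1.14 and passed, in a fit that called 78.6% of all genes tested higher and 2.68% lower.

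In cysteine synthesis Cth rose and Cbs was barely detected. Cth, the lyase that releases cysteine (ENSMUSG00000028179.12, chromosome 3, 157894248 to 157925077, minus strand), held 5, 6, 10 and 4 counts in controls and 34, 108, 125 and 81 in knockouts. All knockout libraries lie above all controls, with knockout replicate 1 lowest. CPM went from 0.333 ± 0.155 to 2.65 ± 0.995 (SD, n = 4 each), a log2 fold change of 3.01 (SE 0.38, edgeR adjusted p = 1.62e-05). Cbs, the entry enzyme of the route (ENSMUSG00000024039.14, chromosome 17, 31608894 to 31637238, minus strand), held 1, 3, 3 and 4 counts in controls and 0, 3, 2 and 1 in knockouts. The ratio of scaled counts was 0.327, with a 95% counting interval of 0.0993 to 0.965. This interval pools the counts of each group and leaves out differences between mice. With no filter on low counts edgeR gave a log2 fold change of -1.49 (SE 0.84, adjusted p = 0.197), so a difference of Cbs between mice was not detectable at this depth. The hepatocyte markers Alb, Ttr, Apoa1 and Serpina1a summed to 0 to 0.158 CPM in controls and 0.232 to 0.404 in knockouts, with Serpina1a at 0 throughout and most of the counts in Ttr (3 and 34). Their part in the Cth result was not tested.

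Knockout replicate 1, whose mtDNA share was the highest of its group, was also the lowest knockout library in 5 of the 8 tested genes. It stood 1.25 log2 units below the mean of the other 3 for Cth and 0.96 below it for Pycr1. For the other tested genes it stood between 0.31 below and 0.13 above. Knockout replicate 2 was the highest in 4 of the 8. The serine genes did not follow this pattern, since Psph was higher in knockout replicate 1 than in the other 3. Without knockout replicate 1 all 7 genes were still called higher. The part of this library's mtDNA share in its lower Cth and Pycr1 counts was not tested.

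The order of the genes by level differed between the groups. Levels were compared per kilobase of annotated exon (CPM per kb), since longer genes collect more counts. The exon length was that of all annotated transcripts together, 4329 bases for Psph and 1339 for Pycrl. Their longest transcripts have 1733 and 1339 bases, so the order can depend on the length used, which was not tested. In controls Pycrl was highest at 2.34 ± 0.571 CPM per kb, followed by Aldh18a1 at 0.910 ± 0.098 and Psph at 0.638 ± 0.155. The ranges of Aldh18a1 and Psph overlap. Asns (0.302 ± 0.042), Psat1 (0.183 ± 0.0744), Pycr1 (0.166 ± 0.0868) and Cth (0.119 ± 0.0553) came next, each overlapping its neighbour. Phgdh (0.0473 ± 0.0307), which overlaps Cth, and Cbs (0.0192 ± 0.00847), which overlaps Phgdh, were lowest by their own counts. With processed copies summed, Phgdh would stand at 0.309 ± 0.0763 in controls, next to Asns, and Psat1 at 0.220 ± 0.0613.

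In knockouts Asns led at 19.5 ± 1.55 CPM per kb, apart from Aldh18a1 at 9.59 ± 0.909. Psat1, at 7.44 ± 1.13, overlaps Aldh18a1. Phgdh stood at 4.31 ± 0.385, Pycr1 at 3.01 ± 0.849 and Pycrl at 2.56 ± 0.265, the last of which overlaps Pycr1. By this exon length, and by the genes' own counts, Pycrl was the highest of the 9 in controls and sixth in knockouts at nearly the same level. Psph (1.35 ± 0.135) and Cth (0.948 ± 0.357) overlap each other, and Cbs was at 0.00588 ± 0.00495. On the same sums Phgdh would stand at 23.6 ± 2.76 CPM per kb in knockouts, above the mean of Asns, and Psat1 at 9.34 ± 1.39.

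Ratios of counts within a library do not depend on how libraries are scaled. They use the same counts as the fold changes above and are not independent of them. Between the groups 10 pairs were compared, of which 9 are reported. Of these 9, 5 differed by a two-sided exact permutation test over 70 relabelings (p = 0.0286, the smallest it can give; 0.0476 after Benjamini-Hochberg adjustment over the 10). For Psph to Phgdh, the last and the entry step of serine synthesis, the log2 ratio was 3.53 to 5.07 in controls and -1.03 to -0.71 in knockouts. By the genes' own counts this is a change from 23.6 Psph counts per Phgdh count to 0.542. It leaves out the processed copies. Phgdh alone held 9 counts in controls and 1365 in knockouts, and with its copies 59 and 7492. Psph held 212 and 740. The ratio of Pycrl to Pycr1 fell by 4.04 log2 units. In controls Pycrl gave 4.90 counts for each count of Pycr1, and in knockouts 0.285. Cth to Cbs was 4.53 log2 units higher in knockouts, with Cbs at 0 to 4 counts per library. All 4 knockout libraries lie apart from all 4 controls in these pairs.

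For the pairs with an enzyme outside the 9, the ratios of Prodh to Pycr1 and of Glul to Asns were also lower in knockouts. Prodh, the oxidase that opens proline breakdown, gave 14.4 counts for each count of Pycr1 in controls and 0.545 in knockouts, a fall by 4.65 log2 units. Glul, the glutamine synthetase gene, gave 159 counts for each Asns count in controls and 6.46 in knockouts, a fall by 4.58. Psat1 to Phgdh (-1.01, exact permutation p = 0.143), Asns to Phgdh (-0.40, exact permutation p = 0.4), Pycr1 to Aldh18a1 (0.80, exact permutation p = 0.114) and Shmt1 to Shmt2 (-0.91, exact permutation p = 0.0857) did not pass. Of these Psat1 to Phgdh depended on the few control counts of Phgdh. It passed at -0.83 with processed copies summed and at -1.43 without control replicate 3 (exact permutation test, adjusted p = 0.0408 in both). Shmt1 to Shmt2 passed at -1.18 without knockout replicate 1.

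**Figure D3:**
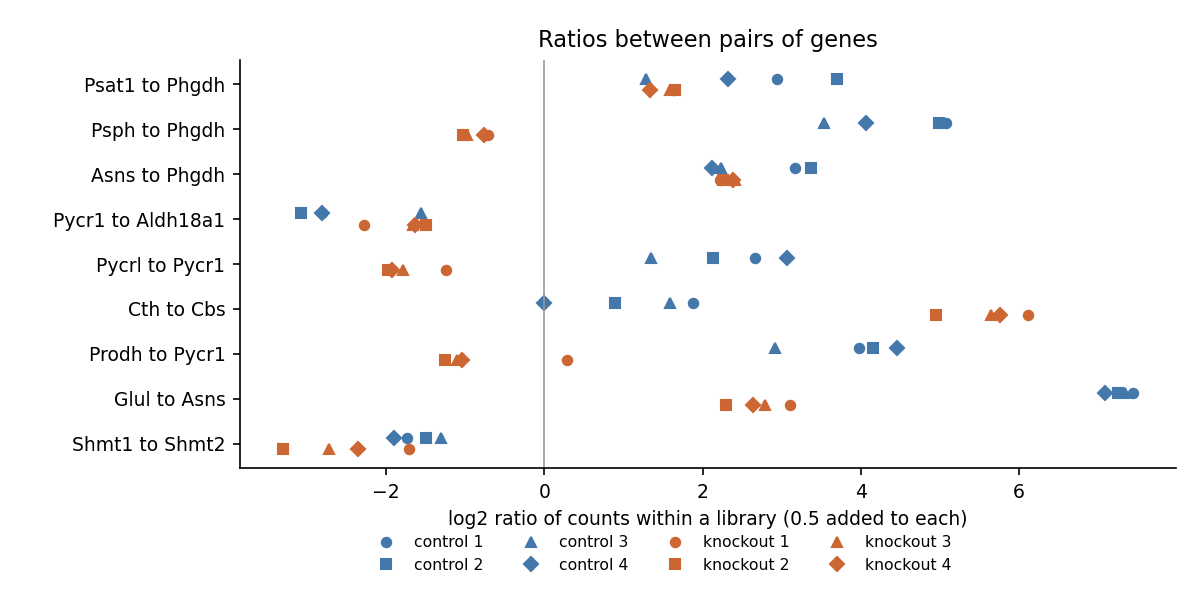
Log2 ratios of counts between 9 pairs of genes (0.5 added to each count), 1 point per library. The 4 knockout libraries lie apart from the 4 controls for Psph to Phgdh, Pycrl to Pycr1, Cth to Cbs, Prodh to Pycr1 and Glul to Asns, and overlap them in the other pairs.

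Enzymes that use or break down the same amino acids changed in both directions. Of 68 such genes in 4 lists 55 had enough counts to test, and 24 rose, 15 fell and 16 did not pass, with a median log2 fold change of 0.17. Over all genes tested 26.1% were called higher and 23.9% lower. The share of these genes that fell was thus near that of all genes, and the share that rose was above it. Among genes of serine and glycine use 9 of 15 rose and 2 fell (median 0.36). Shmt2, which turns serine into glycine in mitochondria, rose by 2.06 (SE 0.15, edgeR adjusted p = 1.18e-07). Its cytosolic counterpart Shmt1 rose by 1.12 (SE 0.17), and Srr, the serine racemase gene, by 0.95 (SE 0.09). Amt (-0.97, SE 0.17) and Gcsh (-0.34, SE 0.08), of the glycine cleavage system, fell relative to nuclear RNA, but under library totals Amt stood at 0.012, without passing, and Gcsh was called higher at 0.65 (edgeR adjusted p = 0.000966).

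Among genes of aspartate, asparagine and glutamine 5 of 12 rose and 2 fell (median 0.13). Adssl1, a muscle adenylosuccinate synthase that consumes aspartate, rose by 1.46 (SE 0.10, edgeR adjusted p = 7.43e-08). Glul, whose product is the amide donor of ASNS, rose by 1.41 (SE 0.11) and Got1, the cytosolic aspartate aminotransferase gene, by 1.06 (SE 0.08). Aspa (-1.14, SE 0.27) and Nit2 (-0.70, SE 0.19) fell, and with library totals Nit2 stood at 0.28 and Aspa at -0.15, where neither passed.

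Among genes of proline, ornithine and arginine 2 of 9 rose and 4 fell (median -0.0023). The count of 2 was 1 without control replicate 1 or 4 or knockout replicate 3 or 4, 3 without control replicate 3, 4 with no filter and 8 under library totals, where 1 fell. Of the breakdown enzymes of proline, Aldh4a1 fell by 1.38 on the log2 scale (SE 0.12, edgeR adjusted p = 4.03e-07) and was still lower at -0.41 under library totals. Prodh fell by 0.46 (SE 0.12, edgeR adjusted p = 0.00641) but was called higher at 0.50 under library totals. Oat, which links ornithine to the same intermediate, fell by 0.47 (SE 0.10; called higher at 0.49 under library totals), and P4ha1, a prolyl hydroxylase of collagen, by 0.59 (SE 0.13; called higher at 0.41 under library totals). Odc1, the entry enzyme of polyamine synthesis, rose by 1.28 (SE 0.09).

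In the list of the methionine cycle, cysteine use and glutathione 8 of 19 rose and 7 fell (median 0.14). Chac1, which breaks glutathione down, went from 5 to 25 counts per control library to 385 to 687 per knockout library (4.55, SE 0.26, edgeR adjusted p = 8.67e-09). The glutathione synthesis genes Gclm (1.93, SE 0.14), Gss (1.67, SE 0.12) and Gclc (1.45, SE 0.12) rose as well. Mtr, which remakes methionine from homocysteine, fell by 1.13 (SE 0.11, edgeR adjusted p = 1.16e-06), and Suox, of sulfite oxidation, by 0.84 (SE 0.10). With library totals Mtr stood at -0.16, without passing, and Suox at 0.17.

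**Figure D4:**
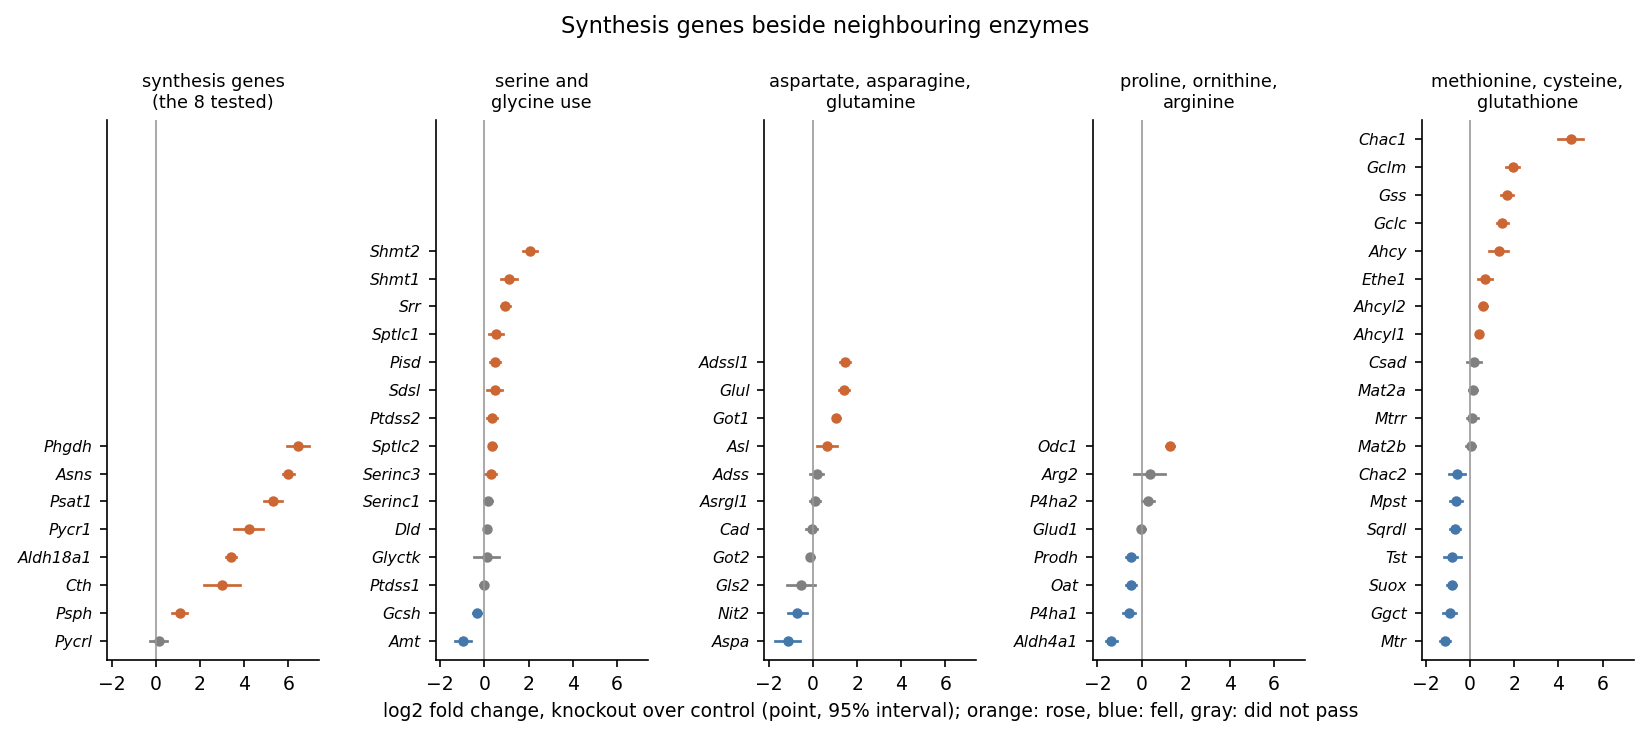
Log2 fold changes (knockout over control) with 95% intervals of the 8 tested synthesis genes and of 53 tested genes of the 4 lists of neighbouring enzymes. Synthesis genes reach 6.45, and of the 53 others Chac1, at 4.55, and Shmt2, at 2.06, are the ones above 2.

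Genes with the most similar profile over the 8 libraries were sought for each tested member among 10317 named genes of at least 2 CPM. The synthesis genes described here were not among the candidates, so their likeness to each other was not compared. The measure was the distance between centred log2 CPM. A prior count of 2 was added before the log, which draws low values together. The 3 nearest to Phgdh were Mthfd2, of mitochondrial folate metabolism (distance 1.05), Ptprt (1.12) and Adm2 (1.20). Adm2 (0.615) was also the nearest to Asns, followed by Ptprt (0.913) and Trib3, a stress-response pseudokinase gene (0.973). A small distance does not mean an equal fold change. The log2 fold change of Adm2 was 9.86 (SE 0.61), against 6.01 for Asns, 6.62 for Ptprt and 6.05 for Trib3. Psat1 was nearest to Tfcp2l1 (0.967), Dlg2 (1.12) and Dusp4 (1.23), and Psph to Fbn2 (0.41), Slmo2 (0.461) and Mt1 (0.466). For Aldh18a1 they were Cyb5r1 (0.27), Otub2 (0.32) and Gars, a tRNA synthetase gene (0.507). Pycr1 was nearest to Hmox1, the heme oxygenase gene (0.929), Plcxd2 (1.05) and Gpnmb (1.15), and Pycrl to Gpkow (0.365), Gas2l1 (0.368) and Specc1 (0.374). The 3 nearest to Cth were Lcn2 (0.919), Mfap4 (0.944) and Postn (0.951). The last of these encodes periostin, a matrix protein of activated fibroblasts. The likeness was not tested, and the 8 libraries are the same that gave the fold changes.

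The authors' deposited table gave smaller fold changes for the genes with few control counts, 5.71 for Phgdh (log2 SE 0.35) and 2.69 for Cth (log2 SE 0.36). DESeq2 1.42.0 run here gave 6.52 for Phgdh and 3.03 for Cth. Whether the deposited fold changes had been pulled toward no change was not tested, so they may not be the same measure. For Aldh18a1 the authors' deposited table gave 3.37 and for Psph 1.07, close to the values above. In the same deposited table of the authors Gm7901 stood at 6.21 and Cbs at -0.92 with an adjusted p of 0.223.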

How the data were processed

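RNA from crude heart mitochondria was extracted with a miRNeasy kit, made into TruSeq libraries and sequenced in paired ends on a MiSeq, per the labels' protocols. Raw counts per gene, whole numbers deposited by the authors, were used. Per the submitters' processing notes the tools were DESeq2 1.14.1, R 3.3.2, featureCounts, bedtools, SAMtools 1.3.1 and Bowtie2, and the build mm10, without stated roles. The deposited table of the authors also gives log2 fold changes with log2 standard errors and adjusted p-values, which were set beside the values computed here.

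Counts were tested with edgeR 4.0.16 in R 4.3.3 (two-sided quasi-likelihood F test on genotype, TMM factors, genes kept by filterByExpr at a minimum of 10 counts), and p-values were adjusted by Benjamini-Hochberg across the 17891 genes kept (threshold 0.05). Each SE was derived from the F statistic and the fold change. Ratios used counts with 0.5 added. Exon lengths, positions and transcripts are from GENCODE M21 (GRCm38), and promoter windows from RefSeq (GRCm38.p6). A copy was a processed pseudogene sharing an exact run of at least 50 bases on either strand. The 9 genes and the lists were chosen with earlier results of these data known. All 9 are named, with up to 4 called genes of each list by smallest p, up to 2 called against their list's majority, the partners of ratios and the 3 nearest profiles. From the lists and pairs, 2 genes and 1 ratio are not reported here, though list counts and adjusted p-values include them.

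Simulated counts were also run through edgeR, with 17602 genes tested and 50 changed at each size. There edgeR recovered 54% of genes changed 1.5-fold, 92% at 2-fold and 100% at 4-fold and 8-fold, with 5 false calls of 178. In the real counts far more genes were called, 8943 of 17891. Whether these rates hold for the real libraries, or for genes with few control counts, was not tested. Replicates are separate mice per the series text, and pairs within a group differed by more than counting noise. Chi-square per degree of freedom was 2.56 to 4.00 for pairs of controls and 8.55 to 15.7 among knockout replicates 2 to 4. For pairs with knockout replicate 1 it was 91.2 to 140. Counting intervals pool the mice of a group, so they leave out differences between mice. They also leave out amplification, since the reads carry no molecular identifiers. Alternatives were leaving out each library, DESeq2 1.42.0, scaling by RLE or by library totals, fitting without a filter, nuclear genes alone, a replicate block, 5 in place of 0.5 added and, chosen after seeing the data, copies summed. Figures were drawn with matplotlib 3.10.9.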

Additional observations from a re-analysis of the deposited data

Results flagged for a closer look

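In 36 groups of 4 libraries (8 genes and 10 ratios in controls and in knockouts) the gap of the farthest library was compared with the range of its group, and chance flags about 1 group in 20. Pycr1 in controls was marked, with a gap of 0.89 of the range: control replicate 3 held 21 counts (1.16 CPM) and the others 9 or 10 (0.449 to 0.527 CPM). The log2 ratio of Prodh to Pycr1 in knockouts was the other, with a gap of 0.862 of the range. Knockout replicate 1 stood at 0.29 and the others at -1.25 to -1.04. The number of marked groups was 2 of 36.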

How the results depend on the processing

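The 7 calls among the synthesis genes held under every alternative run, with 0 called lower in each. Scaling by library totals alone moved the median of all genes by 0.99 log2 units. There, 8 of the genes were called higher, 14066 genes rose and 480 fell over the whole table (78.6% and 2.68% of those tested, against 4669 and 4274), and 43 genes of the 4 lists rose and 1 fell, against 24 and 15. Under the same scaling Amt (0.012), Gcsh (0.65), Nit2 (0.28), Oat (0.49), P4ha1 (0.41), Suox (0.17) and Prodh (0.50) turned positive, and of these Gcsh, Oat, P4ha1 and Prodh were called higher, since they had fallen by less than that shift. Pycrl turned to -0.017 without control replicate 2. Over leaving out each library Pycrl ran from -0.017 to 0.26, Phgdh from 6.21 to 6.83, Asns from 5.93 to 6.08, Psat1 from 5.14 to 5.53, Pycr1 from 4.05 to 4.61, Aldh18a1 from 3.34 to 3.46, Cth from 2.82 to 3.35 and Psph from 0.98 to 1.26.

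With 5 in place of 0.5 added the ratio of Psat1 to Phgdh turned to 0.12 and that of Asns to Phgdh to 0.77 (exact permutation test, adjusted p = 0.0408), because an added count of 5 exceeds the control counts of Phgdh. The same addition moved Psph to Phgdh to -3.84 and Cth to Cbs to 3.18, and both still passed. With copies summed Psat1 to Phgdh was -0.83 and passed. Over leaving out each library Psat1 to Phgdh ran from -1.43 to -0.63 and Shmt1 to Shmt2 from -1.18 to -0.65. With the replicate number as a block, 4 pairs allow no exact sign-flip p below 0.125, so no ratio could pass (adjusted p = 0.208 for those that had). Their differences are the same by construction: Psph to Phgdh -5.28, Pycrl to Pycr1 -4.04, Cth to Cbs 4.53, Prodh to Pycr1 -4.65 and Glul to Asns -4.58. Same-numbered libraries showed no likeness in their deviations (correlation -0.0136 to 0.0497), which cannot show whether the mice were paired. No label says that the numbers pair them. In edgeR the block left all 7 calls in place. Depth limits Cbs, with 11 and 6 counts, and the control levels of Phgdh and Cth.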
